A study of Mus musculus with 5 samples.

Results

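Saa3, Cfb, Serpinb2 and Fgl2 are 4 genes for secreted or intracellular effectors of the acute-phase, complement, protease-inhibitor and coagulation systems, and they were followed through a lipopolysaccharide (LPS) time course in mouse macrophages. They were selected on their changes from 0 h on these same arrays, so their higher values after LPS are a description and not a test. The members are every probe that the platform annotation assigns to 1 of the 4 symbols, which gave 6 of the 14759 probes with 1 gene: 1 for Saa3 (gene ID 20210), 2 for Cfb (14962), 1 for Serpinb2 (18788) and 2 for Fgl2 (14190). Of these, 5 had a value on all 5 arrays, and 1 Fgl2 probe had none at 0.5 h. Macrophages were grown in vitro from bone marrow of BalbC mice with CSF-1 of human sequence, which drives growth of this lineage. The 0 h culture had no LPS, and 4 cultures had been in S. minnesota LPS at 10 ug/ml for 0.5, 2, 7 and 21 h. Each time was 1 two-channel array, where the second channel held a reference shared by all arrays, RNA of day 17.5 whole embryos of C57BL6/J mice. There were therefore no replicates, no p-values and no culture without LPS at the later times, and the labels do not say how many animals gave marrow. A change from 0 h cannot be told apart from time in culture. In such bulk RNA, more RNA per cell and more cells of a kind cannot be told apart either.

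Macrophages sense LPS through Toll-like receptor signalling, and secreted cytokines then act back on the same cells, so that genes respond in early and late waves. The acute-phase response is best known from liver, but serum amyloid A3, encoded by Saa3, is made mainly outside liver in mice, macrophages included. Cfb encodes complement factor B, which binds activated C3 and carries the protease domain of the alternative-pathway convertase. Serpinb2 encodes plasminogen activator inhibitor 2, a clade B serpin that is largely kept inside the cell and is known as strongly LPS-inducible in macrophages. Fgl2 encodes fibrinogen-like protein 2, which exists as a membrane-bound form with prothrombinase activity and as a secreted form.

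The 250 bases before the annotated start are shown for the 3 genes that the RefSeq promoter table (GRCm38.p6) held, Saa3, Serpinb2 and Fgl2, because their values were higher together at 7 and 21 h. Cfb had no entry. Capitals mark matches, on either strand, to any of 6 motifs: the TATA box (TATAAA), AP-1 (TGANTCA), a loose C/EBP pattern (TTNNGNAA), the STAT-bound GAS element (TTCNNNGAA), an interferon response core (GAAANNGAA) and the NF-kappaB consensus, which is given by name alone. Saa3 lies on the minus strand at chr7:46715677-46715926. Serpinb2 is on the plus strand at chr1:107511173-107511422, for the first of 2 starts in the table. Fgl2 is on the plus strand at chr5:21372423-21372672.
Saa3: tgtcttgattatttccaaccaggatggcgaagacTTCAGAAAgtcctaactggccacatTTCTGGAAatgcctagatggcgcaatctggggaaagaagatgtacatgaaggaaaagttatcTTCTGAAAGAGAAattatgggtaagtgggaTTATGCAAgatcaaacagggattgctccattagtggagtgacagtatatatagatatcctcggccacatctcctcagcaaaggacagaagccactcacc
Serpinb2: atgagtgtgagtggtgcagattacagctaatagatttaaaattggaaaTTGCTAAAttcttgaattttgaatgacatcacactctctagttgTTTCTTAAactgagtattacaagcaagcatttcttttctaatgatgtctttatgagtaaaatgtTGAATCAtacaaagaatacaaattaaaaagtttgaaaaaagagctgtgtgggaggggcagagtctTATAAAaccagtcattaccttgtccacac
Fgl2: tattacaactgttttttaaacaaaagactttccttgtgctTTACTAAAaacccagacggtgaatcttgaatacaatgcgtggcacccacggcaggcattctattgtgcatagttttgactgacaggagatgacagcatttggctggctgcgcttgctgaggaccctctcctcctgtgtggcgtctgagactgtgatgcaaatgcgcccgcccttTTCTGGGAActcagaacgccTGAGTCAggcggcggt

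The Saa3 window held 4 matches to the C/EBP pattern, the nearest from 99 to 92 bases before the start, and 1 to the interferon response core, from 125 to 117, which shares bases with the C/EBP match at 129 to 122. The Serpinb2 window held a TATA box from 29 to 24 bases before the start, 1 AP-1 match from 94 to 88 and 2 C/EBP matches. Counted from the second Serpinb2 start, whose window is not shown, the TATA box lay from 116 to 111. That window also held a GAS match from 77 to 69 and a C/EBP match from 19 to 12. The Fgl2 window held an AP-1 match from 16 to 10 bases before the start, a GAS match from 36 to 28 and 1 C/EBP match. The C/EBP pattern was the 1 motif found in all 3 windows shown, and it was common, in 36.8% of all 32851 promoter windows of this length. The other motifs were in 12.4% (TATA), 6.75% (AP-1), 7.02% (GAS), 7.13% (interferon response) and 3.9% (NF-kappaB) of windows. A match is a string of letters and not a bound site, and the NF-kappaB consensus had no match in these 3 stretches.

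The values were signed log ratios, centred here on each array's median, in units whose base the sources used here do not give. A difference of 1 unit would be 2-fold with base 2 and 10-fold with base 10, so no fold is stated. A high value was read as more RNA in the macrophages than in the embryos. That reading is likely and not settled; the other direction would turn each "higher" into "lower". Of 12 measured macrophage markers the median was 0.13 to 0.63 units over the arrays, and of 27 embryonic-tissue markers -0.65 to -0.39. Fcgr1, Lyz2 and Ctss were above 1 unit on all 5 arrays, whereas Cd68 and Tyrobp were at or below 0 on all 5. Error was measured as the disagreement between 2 probes of a gene over 3034 genes, and its standard deviation (probe SD) in the change from 0 h was 0.27, 0.38, 0.23 and 0.23 units for the 4 later arrays in order of time. This error leaves out the spread between cultures or animals. The changes of the 2 probes of a gene correlated weakly, with r of 0.06, 0.10, 0.20 and 0.21 in order of time. All named probes had an SD of 0.29, 0.40, 0.27 and 0.27 units, little more than the probe SD. A change seen in 1 probe alone may therefore not be repeated by another probe of that gene. A change past 2 probe SD (0.55, 0.75, 0.46 and 0.47 units in order of time) is called above or below. Values of the arrays spread most at 2 h (SD 0.55 units), against 0.32 to 0.43 on the others.

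All 6 probes were above 2 probe SD at 7 h, with changes from 0.57 to 1.23 units and a median of 0.80, and all 6 were above it at 21 h, from 0.67 to 1.38 with a median of 0.90. Of 13876 named probes with a value on all arrays, 4.08% were above 2 probe SD at 7 h and 5.53% at 21 h. Because the genes were picked for these contrasts, nothing is read from that difference. Early values were lower and more mixed. At 0.5 h, 1 of 5 probes was above 2 probe SD (Serpinb2) against 4.25% of named probes, and at 2 h 1 of 6 (an Fgl2 probe) against 5.2%. By the stricter mark of 1 unit, no member probe passed at 0.5 or 2 h, when 1.43% and 3.11% of named probes did. At 7 h 1 passed, Serpinb2, against 0.332%, and at 21 h 3 passed, Serpinb2, Saa3 and 1 Fgl2 probe, against 0.281%.

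**Figure D1:**
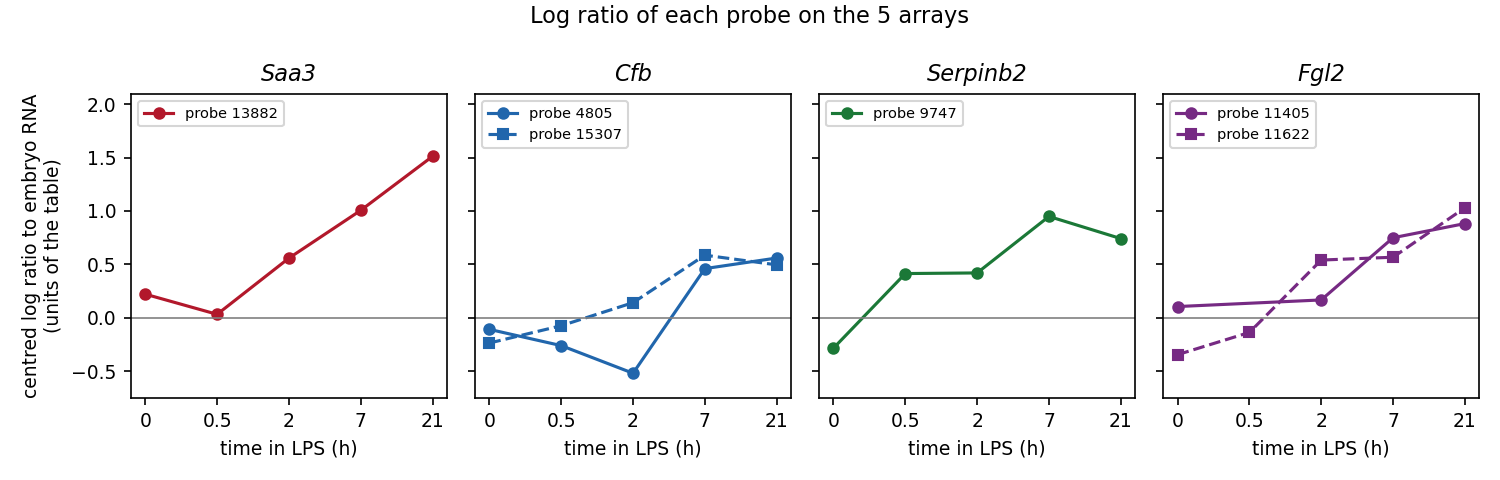
Centred log ratio of macrophage to embryo RNA (units of the deposited table, vertical) for each of the 6 probes on the 5 arrays (time in LPS in h, equal steps, horizontal); each point is 1 array and there are no replicates. Saa3 climbed to 1.51 at 21 h, Serpinb2 was already at 0.41 at 0.5 h, and the 2 Cfb probes and the 2 Fgl2 probes lay closer together at 7 and 21 h than at 2 h.

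Saa3, the acute-phase apolipoprotein gene, showed a late and continuing increase. Its probe, number 13882, read 0.22, 0.03, 0.56, 1.01 and 1.51 units in order of time. The 0.5 h array was thus the lowest and the 21 h array the highest of the 5. The changes from 0 h were -0.19, 0.34, 0.79 and 1.29 units, the first 2 within 2 probe SD and the last 2 at 3.4 and 5.53 probe SD. At 21 h, 17 of the 13876 named probes had a change at least as high, and at 7 h 109. The step from 7 to 21 h was 0.51 units, where the probe SD of that step was 0.16. Quantile normalization put Saa3 at 1.18 at 7 h, and at 2 h cyclic loess turned its value to -0.28. This gene rests on 1 probe, and whether its close paralogs bind that probe was not tested, since the probe sequence was not used here.

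Cfb, the complement protease gene, was near its starting value on the first arrays and higher on the last 2. Probe 4805 read -0.11, -0.26, -0.52, 0.46 and 0.56 units in order of time, and probe 15307 read -0.24, -0.07, 0.14, 0.59 and 0.50. In both probes every array up to 2 h lay below both later arrays. The changes at 7 h were 0.57 and 0.82 units and at 21 h 0.67 and 0.73, so the probes differed by 0.25 and 0.06. At 2 h they differed by 0.79 units and in sign (-0.41 and 0.38), with both within 2 probe SD, and their 0.5 h changes (-0.15 and 0.16) also had opposite signs. The step from 2 to 7 h was 0.98 units in the first probe and 0.44 in the second, where 2 probe SD of that step was 0.77. From 7 to 21 h they moved by 0.10 and -0.09, within the probe SD of 0.16, so no later change was measurable. The median of the probes numbered around 15307 also moved from 0.12 units at 0 h to 0.35 at 2 h and 0.24 at 21 h. With such a running median removed, that probe was still at 0.70 at 7 h and 0.62 at 21 h.

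Serpinb2, the gene of plasminogen activator inhibitor 2, was the earliest of the 4. Its probe, number 9747, read -0.28, 0.41, 0.42, 0.95 and 0.74 units over the 5 times. The 0 h array was the lowest, the 0.5 and 2 h arrays were alike, and the 7 h array was the highest. The changes from 0 h were 0.70, 0.70, 1.23 and 1.03 units, which is 2.56, 1.87, 5.34 and 4.4 probe SD. At 7 h, 21 of the 13876 named probes had a change at least as high, and at 0.5 h 372 did. The drop from 7 to 21 h was -0.21 units, within 2 probe SD (0.33). Much of the distance was covered by 0.5 h: measured from the 0.5 h array in place of 0 h, the change was 0.53 units at 7 h and 0.33 at 21 h, the latter within 2 probe SD, and from the mean of both arrays 0.68 at 21 h. The probes with neighbouring numbers had a median that was higher than at 0 h by 0.17, 0.39, 0.20 and 0.28 units in order of time. With that running median removed, Serpinb2 was at 0.53 at 0.5 h, just under the mark of 0.55, at 0.32 at 2 h, 1.03 at 7 h and 0.75 at 21 h.

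Fgl2, the fibrinogen-like prothrombinase gene, was higher at 7 and 21 h in both probes, with a disagreement at 2 h. Probe 11622 read -0.35, -0.14, 0.54, 0.57 and 1.03 units in order of time, and probe 11405 read 0.10, 0.17, 0.75 and 0.88 at 0, 2, 7 and 21 h. Of the arrays with a value, both were lowest at 0 h and highest at 21 h. The first had changes of 0.21, 0.89, 0.91 and 1.38 units, with 13 of the 13876 named probes at least as high at 21 h. The second had 0.06, 0.64 and 0.78 at 2, 7 and 21 h. The probes therefore differed by 0.82 units at 2 h, 0.27 at 7 h and 0.60 at 21 h. The annotation gives both the same transcript, and whether they are the same oligonucleotide was not tested. At 2 h the higher probe passed 2 probe SD (0.75), and quantile normalization (0.71) and cyclic loess (0.62) ended that call. With the 0.5 h array as baseline it was at 0.68, under that mark but past 2 probe SD of the step from 0.5 to 2 h (0.65). The step from 2 to 7 h was 0.03 units in that probe and 0.58 in the other, both within 2 probe SD of that step (0.77). The time at which Fgl2 became higher is therefore not settled by the 2 probes.

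**Figure D2:**
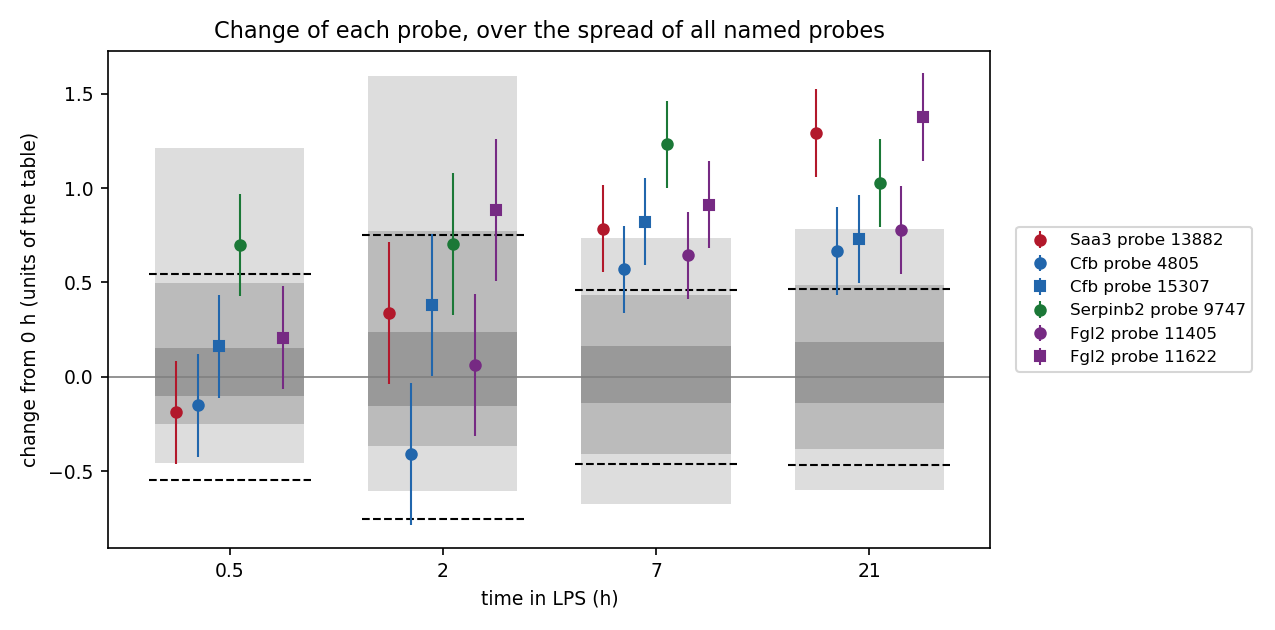
Change from 0 h (units of the table, vertical) of each of the 6 probes at 0.5, 2, 7 and 21 h; bars on the points are 1 probe SD, nested grey bands hold the middle 50%, 90% and 98% of 13876 named probes, and dashed lines are 2 probe SD. At 7 and 21 h all 6 points lie above the upper dashed line, and at 2 h the probes run from -0.41 to 0.89.

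The 4 genes thus differed in when they were highest: Serpinb2 at 7 h, Saa3 and both Fgl2 probes at 21 h, and Cfb at 7 h in 1 probe and 21 h in the other. The step from 7 to 21 h separated them further, with 0.51 units for Saa3 and 0.46 for Fgl2 probe 11622, both past 2 probe SD of that step (0.33). It was 0.13 for Fgl2 probe 11405, 0.10 and -0.09 for Cfb and -0.21 for Serpinb2, all within it. With 1 array per time these differences between genes have no test. By the distance between their 4 changes, the closest pairs were Saa3 and Fgl2 (0.69 units), Serpinb2 and Fgl2 (0.71) and Saa3 and Cfb (0.72). Cfb and Serpinb2 (1.18) were the farthest. Here Fgl2 is the probe with all 5 values. Cfb is the mean of its 2 probes, whose changes had opposite signs at 0.5 and 2 h.

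Genes that work with the 4 were taken from lists of related genes, and most of them lay within 2 probe SD. In these lists a gene is called measured only where a named probe had a value on every array. A probe with an empty value on any array was left out, so a gene not measured may still have a probe. In the acute-phase list, 16 of 37 other genes were measured (28 probes), and Saa1, Saa2, Saa4, Lcn2 and Hp were not among them. At 7 h none of the 28 probes was above and none below; at 21 h 2 were above and 1 below. The 2 were both probes of Fgb, the fibrinogen beta chain gene, at 0.56 and 0.74 units, and the 1 was Ptx3, the long pentraxin gene, at -0.48. The list median was 0.10 units at 7 h and 0.26 at 21 h, where all named probes had medians of 0.02 and 0.01. With the 0.5 h array as baseline the 21 h median was 0.01, and over all alternatives it ran from 0.01 to 0.21. Genes with several probes count more than once in it, and the median of gene means was 0.13 at 21 h. Among the others, A2m was at 0.43 and 0.39, Mt2 at 0.40 and 0.07, and Fga at 0.10 and 0.44, at 7 and 21 h. Earlier, 3 probes were above at 0.5 h, of Fga (0.66), Itih3 (0.62) and Fgg (0.57), and 1 at 2 h, Fga (1.10), with none below. Of all named probes, 4.25%, 5.2%, 4.08% and 5.53% were above at 0.5, 2, 7 and 21 h. Below 2 probe SD were 3.61% of named probes at 7 h and 2.76% at 21 h. At 0.5 and 2 h only 86 and 64 of 13876 named probes were below.

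In the complement system few genes were measured, and most of their probes lay within 2 probe SD. Of all named probes, 4.25%, 5.2%, 4.08% and 5.53% were above at 0.5, 2, 7 and 21 h. Below were 3.61% at 7 h and 2.76% at 21 h. Of 10 other alternative-pathway, C3 and terminal genes 2 were measured. Cfp, which encodes properdin, the stabiliser of the Cfb-containing convertase, was at -0.01 units at 7 h and 0.24 at 21 h, within 2 probe SD, and C8g, a gene of the membrane attack complex, was below at 7 h (-0.51) and at -0.01 at 21 h. Of the classical and lectin pathways 7 of 19 genes were measured (8 probes). The 1 probe above at 7 h was Fcnb, for the pattern-recognition protein ficolin B, at 0.75 units; it was at -0.09 at 21 h, when no probe of this list passed in either direction. C1qa, for a chain of C1q, was at -0.17 and -0.08, C1s1 at 0.10 at both times, Fcna at 0.09 and 0.32 and Colec12 at 0.07 and -0.19. Among complement regulators (10 of 18 genes, 19 probes), 1 probe was above at 7 h, of Cd59a (0.51), and 3 at 21 h, with none below. The 3 were Serping1, for C1 inhibitor (0.52 units), 1 of 4 Clu probes (0.60) and 1 of 3 probes of Cd59a, an inhibitor of the membrane attack complex (0.72, with the lowest of the 3 at -0.12). Cd55, for a factor that decays the convertase, was at -0.21 and 0.04, Cd55b at -0.42 and -0.24 and C1qbp at 0.11 and 0.27. Earlier, Cfi, for the protease that inactivates C3b, held the highest values of this list: its 2 probes were at 0.51 and 0.63 units at 0.5 h and 0.57 and 1.72 at 2 h, 1 above 2 probe SD at each time, and their mean was at -0.14 at 7 h and 0.09 at 21 h. The receptor list had 2 of 11 genes, Cr2 (0.19 and 0.27) and Calr (-0.10 and -0.17), with no probe past 2 probe SD. The C2 and C3 genes had no named probe with a value on every array.

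Among the other clade B serpins no probe changed by as much as Serpinb2 at 7 or 21 h, although Serpinb3a was higher by 1.43 units at 0.5 h and 1 of 3 Serpinb12 probes by 1.05 at 2 h. Of 26, 9 were measured (15 probes), with 1 above and 1 below at 7 h and 3 above at 21 h. Those above at 21 h were Serpinb8 (0.66 units), 1 of 3 Serpinb5 probes (0.90, with the lowest at -0.08) and 1 of 2 Serpinb1a probes (0.52, the other at -0.05). The probe above at 7 h was of Serpinb5 (0.52), and the serpin below was Serpinb9b (-0.57), which was at -0.22 at 21 h. Serpinb3a was at 0.09 and 0.40, Serpinb6a at -0.18 and -0.21 and Serpinb9g at -0.07 and 0.29. The plasminogen and coagulation list holds the proteases and inhibitors that Serpinb2 and Fgl2 act beside, and 16 of 37 genes were measured (23 probes). Of these probes, 1 was above and 4 below at 7 h, and 0 above and 3 below at 21 h, with medians of -0.07 and -0.09 units. For this list and the serpins, the shares of all named probes were 4.08% above and 3.61% below at 7 h. At 21 h they were 5.53% and 2.76%. The tissue factor pathway inhibitor genes Tfpi (-0.52) and Tfpi2 (-0.57) and the factor XIII subunit gene F13b (-0.86) were below at 7 h. On the earlier arrays these 3 lay the other way: Tfpi was higher by 2.31 units at 0.5 h and 0.79 at 2 h, F13b by 0.96 and 1.77, and Tfpi2 was at 0.45 and 0.34, the last gene within 2 probe SD. No probe of the list was below at 0.5 or 2 h, when only 86 and 64 of 13876 named probes were. At each of these times 2 were above, those of Tfpi and F13b, against 4.25% and 5.2% of named probes. Serpind1, for heparin cofactor II, was below at 21 h (-0.59), as was F13b (-0.50). The 3 probes of Serpinf2, for alpha-2-antiplasmin, disagreed: at 7 h they ran from -0.64 to 0.50, past 2 probe SD at both ends, and at 21 h the lowest was at -0.55. Plaur, which encodes the urokinase receptor, was at 0.43 and -0.03 units and Proc, for protein C, at 0.24 and 0.38, within 2 probe SD. The urokinase gene itself had no named probe with a value on every array.

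Of 21 other genes with a fibrinogen-related domain, the family of Fgl2, 10 were measured (14 probes). At 7 h 1 was above, Fcnb, and 2 were below, probes of Angpt1 (-0.67) and Angptl1 (-0.54), both genes of the angiopoietin family. At 21 h the 2 Fgb probes were above and 1 Angpt1 probe (-0.50) below. Of all named probes 4.08% were above and 3.61% below at 7 h, and 5.53% and 2.76% at 21 h. Earlier, 4 of the 14 probes were above at 0.5 h and 2 at 2 h, against 4.25% and 5.2% of named probes. None was below, where only 86 and 64 of 13876 named probes were. Among those above were the higher probes of Angpt1 (1.38 at 0.5 h) and Angptl1 (0.97 at 0.5 h and 1.02 at 2 h). Fga (0.66 and 1.10) and 1 Fgg probe (0.57 at 0.5 h) were also above. The mean of the probes of Fgg, for the fibrinogen gamma chain, was at 0.09 units at 7 h and 0.29 at 21 h. Among genes that signal upstream of the acute phase 4 of 26 were measured. Il1a, for interleukin-1 alpha, was higher by 1.99 units at 7 h and 0.93 at 21 h after 0.04 at 0.5 h and 1.21 at 2 h. The transcription factor gene Irf1 was higher by 0.71 and 0.74 at 7 and 21 h, after 0.64 and 0.83, while Cebpd (0.29 and 0.33), for a C/EBP factor, and Ifngr1 (0.09 and -0.12) lay within 2 probe SD. Over the alternatives, the nearest to 0 were 0.27 for Fgb at 21 h, 0.19 for Serping1, 0.38 for Serpinb8, 0.06 and 0.10 for Irf1 at 7 and 21 h, -0.36 for F13b at 21 h, -0.29 for C8g, -0.34 for Serpinb9b, -0.33 for Tfpi, -0.37 for Tfpi2, -0.24 for the mean of the Angptl1 probes at 7 h and -0.35 for Ptx3 at 21 h, all within 2 probe SD. Fcnb (0.66), F13b at 7 h (-0.68), Serpind1 at 21 h (-0.50) and Il1a (1.88 at 7 h and 0.70 at 21 h) stayed past it in each alternative run.

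**Figure D3:**
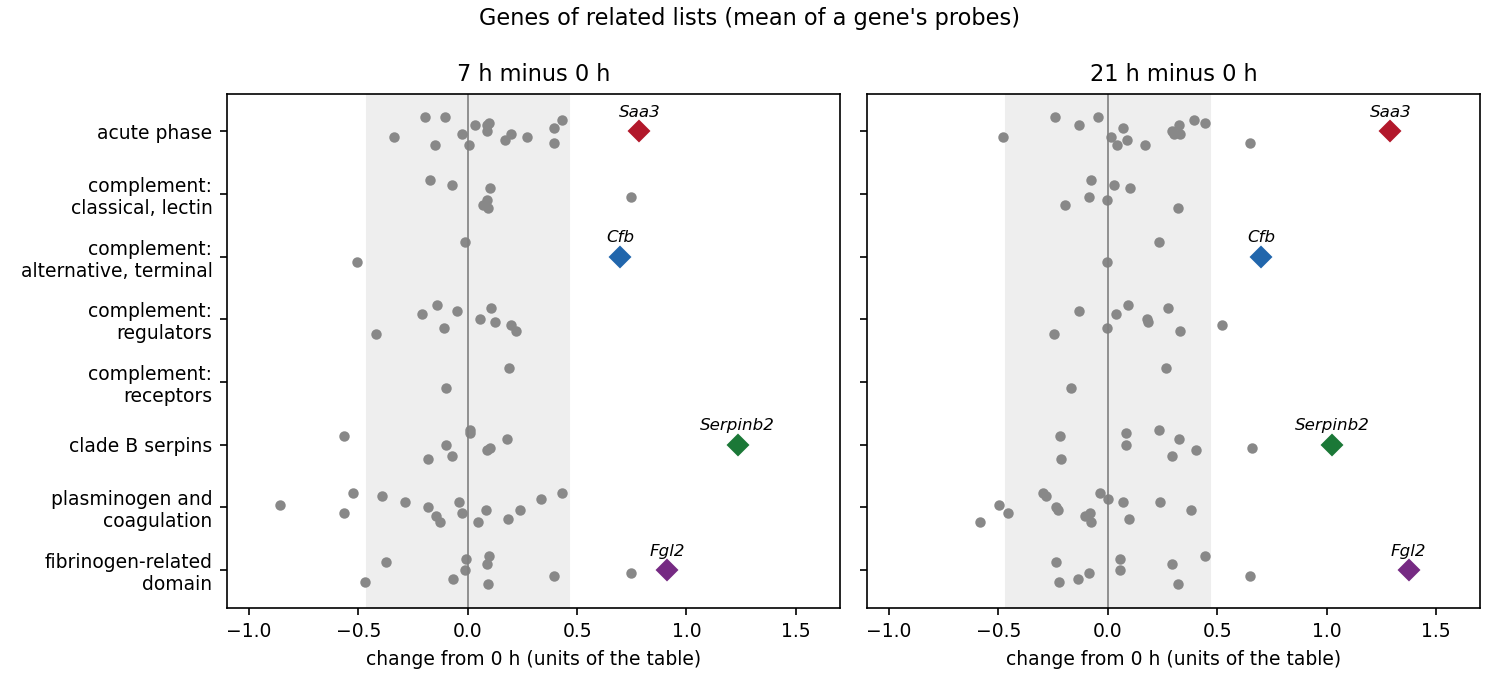
Change from 0 h at 7 h (left) and 21 h (right), in units of the table (horizontal), of the measured genes of 8 related lists (vertical); each grey point is 1 gene, the mean of its probes with all 5 values, diamonds are the 4 genes described, and shading marks 2 probe SD. Each diamond lies to the right of the shading, and most grey points lie inside it; Fcnb (0.75) appears in 2 lists at 7 h.

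Markers of other cell types were set beside these values. The hepatocyte list (17 of 25 genes, 35 probes) shares Fga, Fgb, Fgg, Alb and other genes with the acute-phase list. Its median stayed low against the embryo reference on every array, from -0.63 units at 0 h to -0.32 at 21 h, the 2 ends of its range. Single genes ran from -1.75 (Alb at 0 h) to 0.44 (Ambp at 7 h). The median change of the list was 0.20 units at 7 h and 0.33 at 21 h, with 8 of 35 probes above 2 probe SD at 21 h and none below. Neutrophil markers (7 of 18) had medians from -0.24 to -0.12 units over the 5 arrays and no probe past 2 probe SD at any time. The median of the fibroblast and stromal markers (12 of 14) was between -0.42 and -0.28 units over the arrays, with single genes from -1.60 (Col1a2) to 0.29 (Acta2), and of its 24 probes 1 was above and 1 below at 7 h and 2 and 1 at 21 h. The lymphocyte markers (7 of 18) had medians between -0.06 and 0.08 but wide single values, such as Gzmb at 1.65 units at 0.5 h and Cd3d at 0.96 at 2 h. Of their 9 probes 1 was above and 2 below at 7 h, and 1 and 1 at 21 h. Medians lay between -0.11 and 0.10 for dendritic-cell markers (2 of 10) and between -0.32 and -0.10 for mast-cell and platelet markers (5 of 11), with 1 mast-cell and platelet probe below at 7 h. Among macrophage markers 4 of 17 probes were above at 7 h and 4 at 21 h, with none below. Among embryonic-tissue markers 8 of 92 were above at 7 h with none below, and 12 above and 1 below at 21 h. Of all named probes 4.08% and 5.53% were above at these times. The 92 probes belong to 27 genes, with 21 of Hbb-b1 and 13 of Hba-a1, so 1 gene can count many times. Their median change was 0.19 units at 7 h and 0.14 at 21 h over probes, and 0.08 and 0.05 over gene means. The part of these shifts in the values of the 4 genes was not tested.

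Neighbours on the chromosome, 4 protein-coding genes to each side in RefSeq order, were mostly within 2 probe SD at 7 and 21 h where they were measured. Beside Saa3 the 1 measured neighbour was Saal1, at 0.05 units at 7 h and 0.06 at 21 h. Around Cfb, which lies in the major histocompatibility complex next to C2, Nelfe was at 0.15 and 0.16, Skiv2l at -0.34 and -0.21, Dxo at -0.24 and -0.32, Stk19 at 0.30 and 0.13, Ehmt2 at -0.13 and -0.05, and Slc44a4 at 0.33 and 0.53, the last past 2 probe SD at 21 h. Within the serpin cluster around Serpinb2, Serpinb11 was at -0.10 and 0.08 and Serpinb8 as given above. Around Fgl2, Ptpn12 was at 0.18 and 0.04, Fam185a at 0.01 and 0.06, Armc10 at 0.05 and 0.25, and Gsap at -0.27 and -0.57, the last past 2 probe SD. On the earlier arrays Gsap was higher by 2.01 units at 0.5 h and 1.36 at 2 h, and Dxo by 1.25 and 0.83. These 4 values were past 2 probe SD, and the other measured neighbours were within it at 0.5 and 2 h.

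The genes whose 4 changes from 0 h lay closest to each of the 4, among 8692 genes measured on all 5 arrays, are given with their Euclidean distance over the 4 times. For Saa3 they were Cd52, a lymphocyte and myeloid surface glycoprotein gene (0.40 units away; 0.89 at 7 h and 0.99 at 21 h), Ms4a4d (0.49; 0.53 and 1.01) and the haem oxygenase gene Hmox1 (0.49; 0.52 and 1.01). For Cfb they were Polr1c, an RNA polymerase subunit gene (0.25; 0.54 and 0.53), the nucleoside transporter gene Slc28a2 (0.28; 0.59 and 0.52) and the annexin gene Anxa4 (0.29; 0.58 and 0.46). For Serpinb2 they were Hibadh, for a mitochondrial dehydrogenase of valine breakdown (0.42; 0.95 and 0.94), the stress-response gene Gadd45b (0.43; 1.12 and 0.67) and Tor4a (0.43; 0.99 at 21 h). Tor4a was at -0.01 at both times with the 0.5 h array as baseline. For Fgl2 they were Myot (0.39; 0.84 and 1.02), the interleukin-1 receptor antagonist gene Il1rn (0.53; 1.28 and 1.03) and 1810009J06Rik (0.53; 0.72 and 1.52). Among so many genes some lie close over 4 values, and the distance is a description only. Cfb entered as the mean of its 2 probes, 0.005 units at 0.5 h and -0.02 at 2 h. The 2 probes had opposite signs at both times, each within 2 probe SD, so its closest genes match the mean and not the values of either probe.

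**Figure D4:**
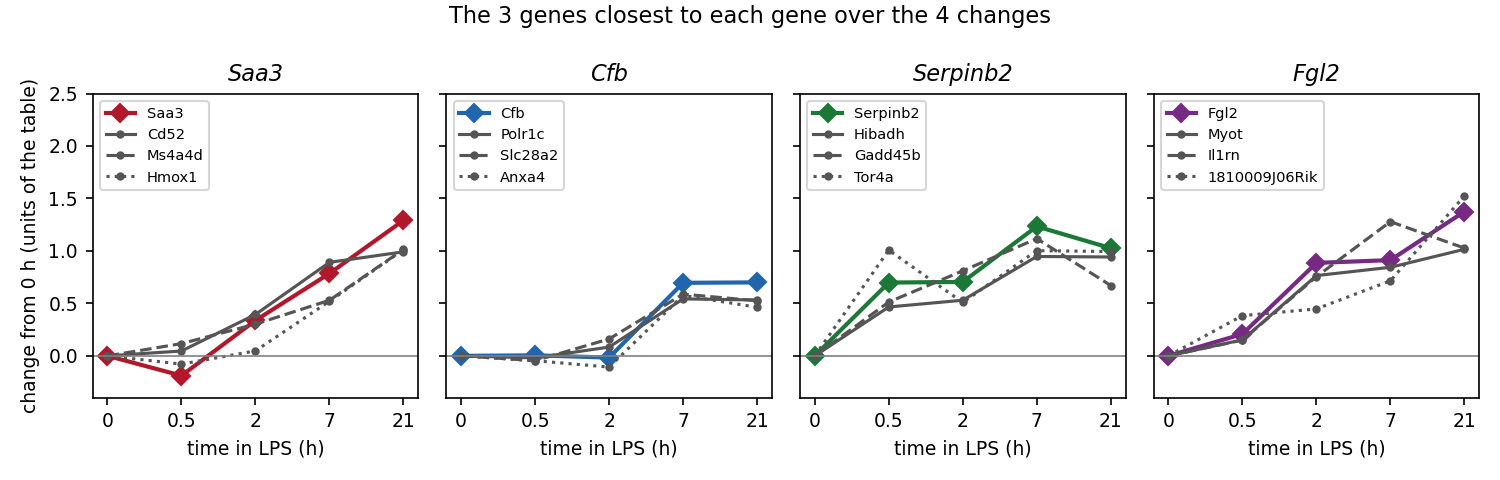
Change from 0 h (units of the table, vertical) at each time in LPS (h, equal steps, horizontal) for each of the 4 genes (coloured, mean of its probes with all 5 values) and the 3 genes closest to it (grey); each point is 1 array. The genes close to Cfb stay near 0 up to 2 h, as does the mean of the 2 Cfb probes, which had opposite signs at 0.5 and 2 h. Those close to Serpinb2 are already at 0.47 to 1.01 at 0.5 h.

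**Figure D5:**
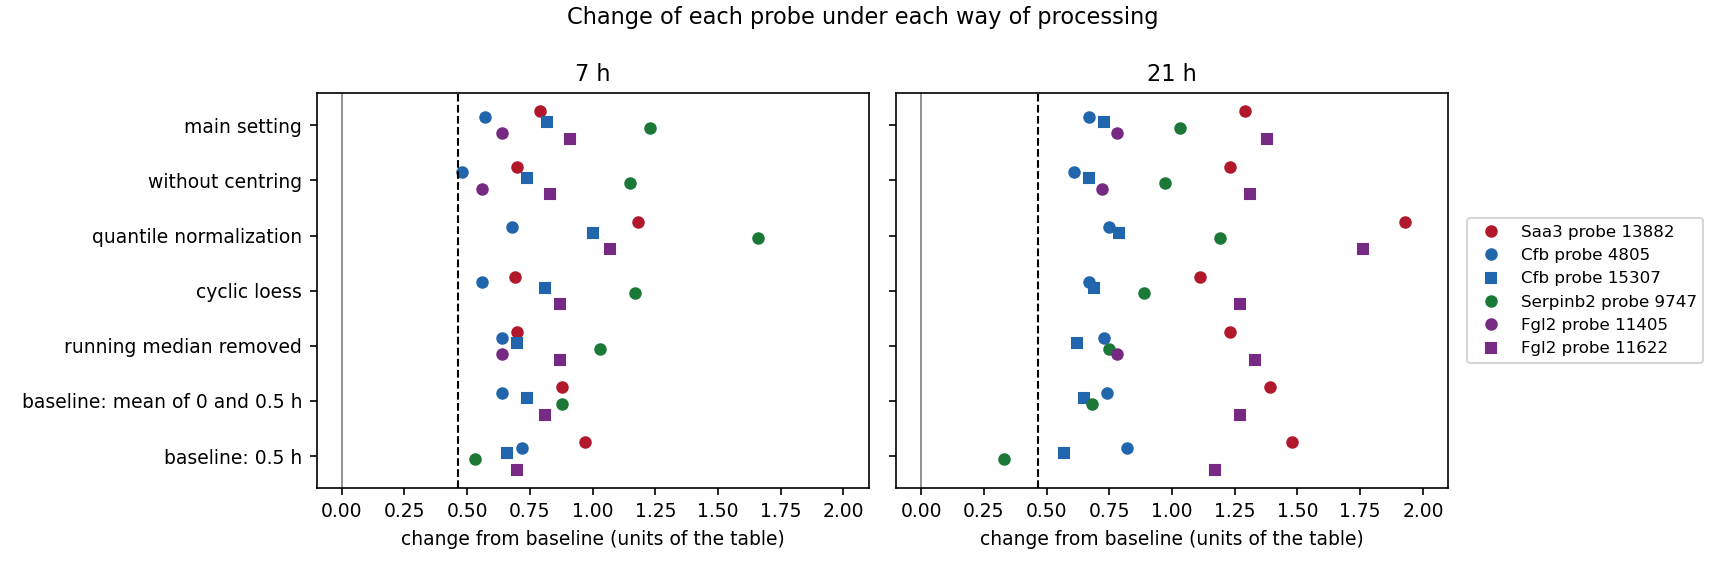
Change from the baseline (units of the table, horizontal) of each probe at 7 h (left) and 21 h (right) under the main setting and 6 alternatives (vertical); the dashed line is 2 probe SD of the main setting, and Fgl2 probe 11405 is absent where all 5 values were needed. Except for Serpinb2 at 21 h with the 0.5 h array as baseline (0.33), each plotted point lies to the right of the dashed line.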

How the data were processed

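Each of the 5 samples is 1 two-channel array. The authors deposited 1 score per probe and array, a signed log ratio of 19828 probes; its base, direction, background correction and normalization were not given in the sources used here. Per the labels, total RNA came from a column kit and was labelled through amino-allyl nucleotides. Empty values numbered 207 to 681 per array, signal over background was not used here, and the number of arrays limits the precision.

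Probes were named from the platform annotation where it gives 1 gene (14759; 170 had several and 4899 none listed), and gene IDs of 14628 were found in RefSeq. From each array its own median over the 18391 probes with 5 values (-0.02 to 0.12) was subtracted, and members were treated probe by probe. The planned threshold of 1 log unit became 1 unit of the table. Arrays correlated with r from 0.44 to 0.84 over these probes.

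Members and lists were chosen with earlier results of these data known. List genes were named by the 4 largest absolute changes at 7 and at 21 h per list, and the 3 closest genes by distance; single probes and further list genes past 2 probe SD, neighbours and markers were added after their values were seen. Changes were checked on simulated data. Alternatives were no centring, quantile normalization, cyclic loess, other baselines, probes on the 2 arrays compared, a running median over 201 probes removed, a threshold of 1.5 units, leaving out the lowest 10% of mean log ratio, and probes of a gene averaged. Work was done in Python 3.11.15, numpy 2.4.6, pandas 2.3.3, matplotlib 3.10.9, R 4.3.3 and limma 3.58.1.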

Additional observations from a re-analysis of the deposited data

How the results depend on the processing

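At 7 h the member probes kept their direction and their side of 2 probe SD (that of the main setting) in every alternative that gave them a value, and at 21 h in all but Serpinb2 with the 0.5 h array as baseline. Values past 1 probe SD from the reported ones were, with quantile normalization, Saa3 at 1.18 (7 h) and 1.93 (21 h), Serpinb2 at 1.66 (7 h) and Fgl2 probe 11622 at 1.76 (21 h). For Serpinb2 they were 0.53 and 0.33 with the 0.5 h baseline, 0.88 and 0.68 with the mean of the 0 and 0.5 h arrays as baseline, at 7 and 21 h, and 0.75 at 21 h with the running median removed. By the marks of the main setting, the count of member probes above 2 probe SD at 2 h was 2 without centring. It was 0 with quantile normalization, cyclic loess or the 0.5 h baseline, and at 0.5 h it was 0 with the running median removed. With the 0.5 h baseline, Fgl2 probe 11622 (0.68 at 2 h) was past 2 probe SD of that step itself (0.65). Tor4a was at -0.01 at 7 and 21 h with the 0.5 h baseline. The causes were not tested. Named probes at least 1 unit higher at 2 h numbered 431 as reported, 132 with quantile normalization and 184 with cyclic loess. At 0.5 h they numbered 198 as reported and 70 with quantile normalization. At 7 h they numbered 46 as reported, 103 with quantile normalization, 27 with the 0.5 h baseline and 22 with the mean baseline, and at 21 h 39, 101, 23 and 19. Above 2 probe SD were 721 as reported, 272 with quantile normalization and 366 with cyclic loess at 2 h, 590 and 354 with quantile normalization at 0.5 h, 566 and 346 without centring at 7 h, and at 21 h 768, 460 with the 0.5 h baseline, 474 with the mean baseline and 508 with the running median removed. At 2 h the 0.5 h baseline gave 441. With a threshold of 1.5 units, 90, 160, 9 and 5 probes were higher in order of time, and without the lowest 10% of mean log ratio 25 were at least 1 unit higher at 21 h. No paired analysis was possible because each time had 1 array. Fgl2 probe 11405 has no value under the settings that need all 5 arrays or the 0.5 h array. Dim spots could not be left out, so how far signal over background limits each value is unknown.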
